A study of Homo sapiens with 9 samples.

Results

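The serpins are a family of proteins named for serine protease inhibition, and their rows were described here in HaCaT cells, an immortalized line of human keratinocytes. Members were chosen from the deposited count table as rows whose symbol starts with SERPIN, without SERPINH1 and with a second entry written SERPINA3-1. Described here are 33 such rows of 21170 in the table. Of these, 26 had at least 1 count in any library, and 18 passed the filter on low counts, against 13713 features that passed it in the whole table. The groups, of 3 libraries each, were cells overexpressing an FTO mutant with disrupted demethylase activity (mut-FTO), cells overexpressing wild-type FTO (FTO), and cells with an empty vector (Vector). FTO removes methyl groups from adenosines in RNA. The promoter of the constructs, the way they were brought into the cells, and whether each group was 1 population of cells are not given in the labels. No label states whether libraries within a group stem from different cultures. The p-values therefore reflect only the variation among these libraries, which may be technical.

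An inhibitory serpin presents an exposed loop as bait to a protease. When the protease cuts the loop, the serpin springs into another shape, and the protease stays bound to it and inactive. Letters mark the clades: most members of clades A, C, D, E, F, G and I are secreted and act in blood, matrix or brain, while clade B members act mainly inside cells. Some members, such as the corticosteroid and thyroxine carriers, have lost the inhibitory function. In skin, clade B serpins are abundant in keratinocytes, where they meet cathepsins and other proteases, and the squamous cell carcinoma antigens SERPINB3 and SERPINB4 are known for their high levels in psoriatic skin.

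Libraries held 32222203 to 37846027 counts. Values are in CPM, the count scaled to the library size after adjustment by TMM factors. FTO itself had 49.7, 82.7 and 64.2 CPM in mut-FTO cells, 69.6, 77.0 and 62.6 CPM in FTO cells, and 18.4, 17.0 and 25.8 CPM in Vector cells. The Vector libraries were thus set apart. Which columns are FTO and which are mut-FTO rests on the letters in the column names. All 10 keratinocyte markers passed the filter, and their summed level was 20375 to 26094 CPM in mut-FTO libraries, 15962 to 16508 CPM in FTO libraries, and 14269 to 16426 CPM in Vector libraries. Vector replicate 3 stood apart, with 14.97% of its counts in mitochondrially encoded genes against 3.80% to 7.45% in the other libraries. Assembled loci without a gene name took 3.17% of the counts of mut-FTO replicate 2, 2.50% of those of Vector replicate 3, and at most 0.874% in the other libraries.

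By level, the family was led by clade B. Its 13 rows held 86.7% to 94.6% of the CPM of the 33 rows in each library, and SERPINB3 and SERPINB4 together 52.7% to 75.0%. Per kilobase of transcript, over all 9 libraries, SERPINB4 stood highest at 1986 CPM per kb and SERPINB3 next at 1176 CPM per kb. SERPINB1 followed at 275 CPM per kb, both SERPINA3 entries together at 176, SERPINB13 at 165 and SERPINB5 at 151 CPM per kb. The order of these last 3 differed between the groups. SERPINB5 had 157, the SERPINA3 entries together 147 and SERPINB13 134 CPM per kb in mut-FTO cells, SERPINB13 172, the SERPINA3 entries 161 and SERPINB5 154 in FTO cells, and the SERPINA3 entries 219.6, SERPINB13 189.6 and SERPINB5 143 in Vector cells. For these values the sum of the SERPINA3 entries was divided by the SERPINA3 length, 2.66 kb, although the transcripts behind SERPINA3-1 are not known. The SERPINA3 entry alone had 142 CPM per kb over all libraries, below SERPINB13 and SERPINB5. SERPINE2 had 83 and SERPINB2 76.9 CPM per kb over all libraries, and SERPINA1 only 3.46 CPM per kb. Of the rows described, clade E was represented by 1 tested row of 2, clade A by 3 of 11, clade F by 2 of 2, clade I by 1 of 2 and clade G by its 1 row.

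Between the groups, serpin rows that passed the test were all lower: 5 of 18 tested rows in mut-FTO against Vector, 2 in FTO against Vector and 3 in mut-FTO against FTO. The test was edgeR's quasi-likelihood test with Benjamini-Hochberg adjustment over all features, at an adjusted p below 0.05. Among all features tested, 7.78% passed in mut-FTO against Vector (4.51% lower), 0.744% in FTO against Vector (0.438% lower), and 2.33% in mut-FTO against FTO (1.2% lower). The members' shares were 27.8%, 11.1% and 16.7%, all of it in the lower direction. By edgeR, 0 serpin rows passed in the higher direction in these comparisons, against 3.27%, 0.306% and 1.13% of all features. At an unadjusted p below 0.05, the rows with a higher value numbered 0 in mut-FTO against Vector, 0 in FTO against Vector and 1 in mut-FTO against FTO, against 10.1%, 4.94% and 7.3% of all features. DESeq2 called 5, 3 and 4 serpin rows in the 3 comparisons, again none of them higher, and 1680, 366 and 751 of all features. Without Vector replicate 3 and mut-FTO replicate 2, the libraries that stood apart, edgeR called 5, 2 and 5 serpin rows, and none higher. These were not all the same rows as before. In mut-FTO against Vector, SERPINA3-1 no longer passed (edgeR adjusted p = 0.133) and SERPINA3 did (adjusted p = 0.000937). In FTO against Vector, SERPINA3-1 no longer passed (edgeR adjusted p = 0.0674) and SERPINE2 did (adjusted p = 0.00106). The edgeR calls among all features then rose to 2401, 1050 and 1196, against 1067, 102 and 319 with all libraries.

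The median log2 fold change of the 18 rows was −0.32 in mut-FTO against Vector, 0.02 in FTO against Vector and −0.28 in mut-FTO against FTO. Over all features tested it lay at −0.0012, −0.0020 and −0.0046. The libraries of mut-FTO and Vector did not overlap for 7 rows, all lower in mut-FTO, or 38.9% of the rows against 24% of all features (11.8% lower). Between FTO and Vector 5 rows did not overlap, 4 of them lower and 1 higher in FTO, or 27.8% against 21% of all features (10.9% lower and 10.1% higher). Between mut-FTO and FTO the count was 8, all lower in mut-FTO, or 44.4% against 29% (14.8% lower). Comparisons that share a group of libraries are not independent of each other.

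**Figure D1:**
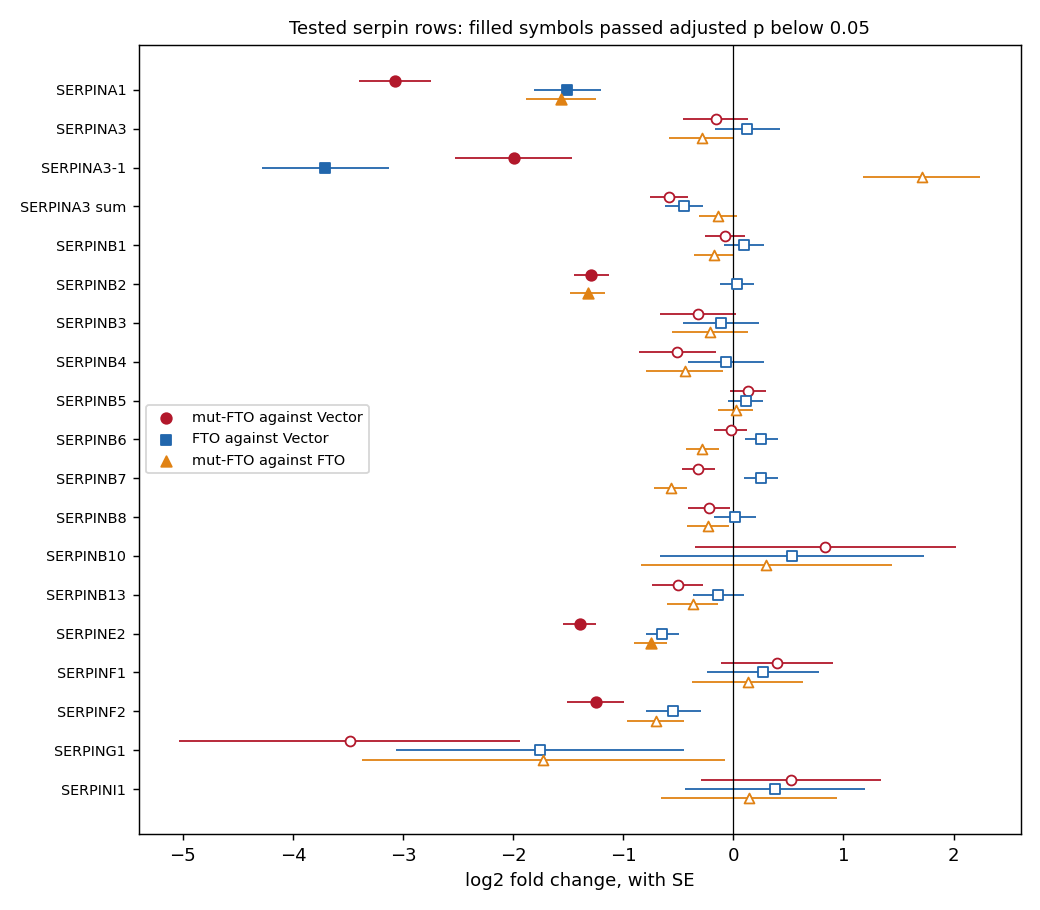
Log2 fold change (horizontal axis, with SE) of the 18 tested serpin rows and of the sum of both SERPINA3 entries (rows, in clade order) in mut-FTO against Vector (circles), FTO against Vector (squares) and mut-FTO against FTO (triangles). Filled symbols passed an adjusted p below 0.05 by edgeR's quasi-likelihood test; all filled symbols lie below 0, from −3.71 for SERPINA3-1 to −0.75 for SERPINE2.

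The clearest differences included serpins that restrain plasminogen activation, the step in which PLAT and PLAU turn plasminogen into plasmin, a protease that dissolves fibrin and matrix. SERPINE2, of clade E, encodes protease nexin-1, an inhibitor of thrombin, plasmin and PLAU that is held at the cell surface and in matrix. Its levels were 123, 105 and 133 CPM in mut-FTO cells, 205, 196 and 205 CPM in FTO cells, and 294, 299.6 and 356 CPM in Vector cells. The 3 groups formed separate steps, mut-FTO lowest and Vector highest. SERPINE2 fell 2.63-fold in mut-FTO against Vector (log2 −1.40, SE 0.15; adjusted p = 0.000142, edgeR quasi-likelihood test), a call that held with any single library left out. It fell 1.68-fold in mut-FTO against FTO (log2 −0.75, SE 0.15; adjusted p = 0.0220, edgeR), but this call was lost without any 1 of the mut-FTO or FTO libraries (adjusted p = 0.0549 to 0.116). At −0.65, its log2 value for FTO against Vector did not pass (edgeR adjusted p = 0.0806). It passed without Vector replicate 3 (log2 −0.58; edgeR adjusted p = 0.0107) and by DESeq2 (adjusted p = 0.00163).

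The SERPINE2 promoter is shown because its window was the only 1 of 39 promoters at hand, of 26 member genes, that held CACGTG, the E-box letters. Of all 35116 promoters, 7.256% hold these letters on either strand. The window runs from 250 bases before to 50 bases after the first of 2 listed starts, at chr2:224031429-224031728 on the minus strand (RefSeq, GRCh38.p14), 5′ to 3′, with the motif in capitals.
SERPINE2: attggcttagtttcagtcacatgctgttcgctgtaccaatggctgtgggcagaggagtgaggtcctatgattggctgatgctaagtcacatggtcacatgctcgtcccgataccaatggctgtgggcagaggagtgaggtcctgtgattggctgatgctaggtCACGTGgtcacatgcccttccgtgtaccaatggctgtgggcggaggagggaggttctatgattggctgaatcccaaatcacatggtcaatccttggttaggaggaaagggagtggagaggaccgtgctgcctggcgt
The motif began 87 bases before the start site. A match of letters is a description of the window and says nothing about binding in these cells.

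SERPINB2 encodes plasminogen activator inhibitor 2, a clade B member that is also found inside keratinocytes. It had 86.9, 75.6 and 88.3 CPM in mut-FTO cells, 187, 206 and 235 CPM in FTO cells, and 206, 182 and 224 CPM in Vector cells. All mut-FTO libraries lay below all others, while the FTO and Vector libraries overlapped. SERPINB2 fell 2.44-fold in mut-FTO against Vector (log2 −1.29, SE 0.16; adjusted p = 0.000295, edgeR quasi-likelihood test) and 2.50-fold in mut-FTO against FTO (log2 −1.32, SE 0.16; edgeR adjusted p = 0.000950). Both calls held with any single library left out. Its log2 fold change in FTO against Vector was 0.03 (SE 0.15; 95% interval −0.34 to 0.41, from the SE with 6 residual degrees of freedom; edgeR adjusted p = 0.954). Of the windows of 100 bases in its longest transcript, 21.9% also occur in transcripts of other genes. The gene sharing most of them is SERPINB10, which had at most 0.378 CPM in any library.

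The SERPINB2 promoter is shown for 2 motifs found in it, the AP-1 letters TGANTCA and the TATA box letters TATAAA, both in capitals below. It spans chr18:63887455-63887754 on the plus strand (RefSeq, GRCh38.p14), from 250 bases before to 50 bases after the start, 5′ to 3′.
SERPINB2: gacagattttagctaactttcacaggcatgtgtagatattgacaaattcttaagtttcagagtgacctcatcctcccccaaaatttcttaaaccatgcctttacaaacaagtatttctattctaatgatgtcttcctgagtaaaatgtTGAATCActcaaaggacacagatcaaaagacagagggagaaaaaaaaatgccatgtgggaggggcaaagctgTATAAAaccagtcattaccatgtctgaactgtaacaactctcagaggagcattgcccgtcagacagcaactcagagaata
The AP-1 letters began 102 bases and the TATA box letters 30 bases before the start site. On either strand, TGANTCA was in 7.709% of all promoters and in 9 of the 39 member promoters, which belong to 8 of the 26 member genes. TATAAA was in 11.53% of all promoters and in 11 of the 39, which belong to 10 of the 26 genes. These motifs do not overlap each other.

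SERPINF2 encodes alpha-2-antiplasmin, the inhibitor of plasmin itself, a protein made chiefly by liver. Its level was low, with 2.49, 1.66 and 1.85 CPM in mut-FTO cells, 3.48, 3.27 and 3.06 CPM in FTO cells, and 5.35, 5.09 and 3.89 CPM in Vector cells. The groups did not overlap. SERPINF2 fell 2.38-fold in mut-FTO against Vector (log2 −1.25, SE 0.26; adjusted p = 0.00988, edgeR quasi-likelihood test), a call that was lost without mut-FTO replicate 3 (adjusted p = 0.0539). The log2 fold changes of −0.55 in FTO against Vector (adjusted p = 0.422) and −0.71 in mut-FTO against FTO (adjusted p = 0.221) did not pass the edgeR test.

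The order of mut-FTO below FTO below Vector, with no overlap between any of the groups, was seen in 3 of the 18 tested rows: SERPINE2, SERPINF2 and SERPINA1. Among all features tested 2.28% had that order. The reverse order was seen in 0 serpin rows and in 1.44% of all features.

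**Figure D2:**
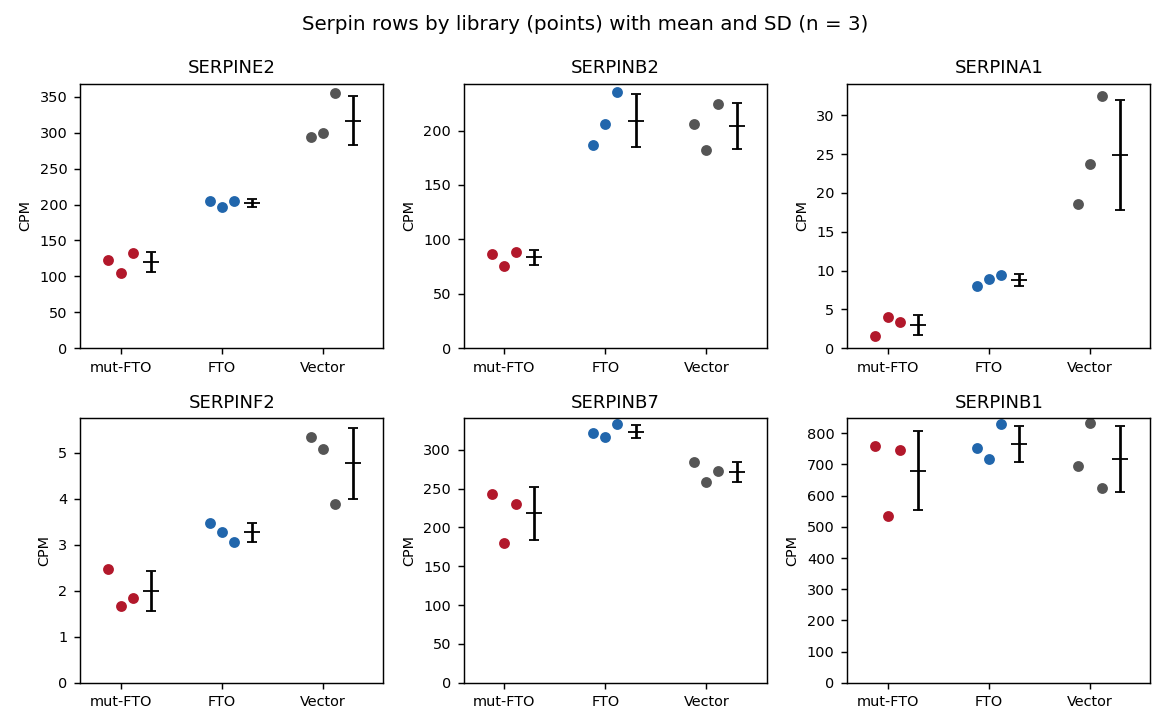
CPM (vertical axes, from 0) of SERPINE2, SERPINB2, SERPINA1, SERPINF2, SERPINB7 and SERPINB1 in each library (points) of mut-FTO, FTO and Vector cells, with mean and SD (bars, n = 3). SERPINE2, SERPINA1 and SERPINF2 step up through the groups without overlap, SERPINB2 is low in the mut-FTO libraries alone, SERPINB7 is highest in the FTO libraries, and the groups of SERPINB1 overlap.

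Among the proteases that these serpins restrain, PLAT, tissue plasminogen activator, had 107, 131 and 137 CPM in mut-FTO cells, 135, 148 and 159.6 CPM in FTO cells, and 231, 346 and 228 CPM in Vector cells. Every mut-FTO and every FTO library was below every Vector library. PLAT fell 2.14-fold in mut-FTO against Vector (log2 −1.10, SE 0.19; adjusted p = 0.00325, edgeR quasi-likelihood test). For FTO against Vector its log2 value of −0.86 did not pass (edgeR adjusted p = 0.0613), but passed without Vector replicate 3 (log2 −0.99; adjusted p = 0.00135). PLAU, urokinase, averaged 269 ± 37.2 CPM in mut-FTO cells, 253 ± 14.0 CPM in FTO cells and 299 ± 64.8 CPM in Vector cells (SD, n = 3 each), and passed in none of the 3 comparisons (edgeR adjusted p = 0.699, 0.638 and 0.892). Without both Vector replicate 3 and mut-FTO replicate 2, PLAU passed in FTO against Vector, at a log2 fold change of −0.41 (edgeR adjusted p = 0.0336) against −0.24 with all libraries. PLAUR, the receptor that holds urokinase at the cell surface, averaged 101 ± 9.99, 107 ± 5.59 and 106 ± 11 CPM in mut-FTO, FTO and Vector cells, and passed in none either (edgeR adjusted p = 0.853, 0.986 and 0.891). Of the 9 tested genes of a list on plasminogen activation and clearance, 2 fell in mut-FTO against Vector. These were PLAT and LRP8, a lipoprotein receptor, and no gene of the list passed in the other comparisons. Of all features tested, 7.78% passed in mut-FTO against Vector, 0.744% in FTO against Vector and 2.33% in mut-FTO against FTO. LRP8 had a log2 fold change of −0.76 (SE 0.18; edgeR adjusted p = 0.0231), a call lost without mut-FTO replicate 1, 2 or 3 or Vector replicate 2 (adjusted p = 0.0673 to 0.0857). The list's median log2 fold changes were −0.14, −0.13 and −0.24 in mut-FTO against Vector, FTO against Vector and mut-FTO against FTO.

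Fibroblasts also make clade E serpins, and their markers were low in all groups. The 9 fibroblast markers, 5 of them tested, summed to 11.3 to 12.3 CPM in mut-FTO libraries, 7.06 to 9.50 CPM in FTO libraries and 9.59 to 10.4 CPM in Vector libraries, with THY1 at 0 throughout. Endothelial markers, 1 of 6 tested, summed to 0 to 0.378 CPM in mut-FTO libraries, 0.400 to 1.07 CPM in FTO libraries and 0.874 to 1.73 CPM in Vector libraries, with PECAM1 and CLDN5 at 0. Melanocyte markers, 1 of 6 tested, summed to 1.32 to 1.59, 0.831 to 1.46 and 0.643 to 0.895 CPM in mut-FTO, FTO and Vector libraries, with TYR and DCT at 0. The part of such cells in these results was not tested. In RNA of whole cultures, fewer cells that express a gene and less of its RNA per cell cannot be told apart.

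In clade A, the row with the largest fall among the 5 serpin rows that passed in mut-FTO against Vector was SERPINA1, encoding alpha-1-antitrypsin, the main inhibitor of neutrophil elastase in plasma. It had 1.57, 3.97 and 3.38 CPM in mut-FTO cells, 7.94, 8.88 and 9.47 CPM in FTO cells, and 18.5, 23.7 and 32.5 CPM in Vector cells. No library of a group overlapped another group. SERPINA1 fell 8.41-fold in mut-FTO against Vector (log2 −3.07, SE 0.33; adjusted p = 0.000120, edgeR quasi-likelihood test), a call that held with any single library left out. It fell 2.84-fold in FTO against Vector (log2 −1.51, SE 0.30; adjusted p = 0.0441, edgeR) and 2.96-fold in mut-FTO against FTO (log2 −1.57, SE 0.31; adjusted p = 0.0223, edgeR). The call in FTO against Vector was lost without mut-FTO replicate 2 or 3, any FTO library or Vector replicate 2 (adjusted p = 0.0615 to 0.246), and with only the 6 libraries compared (adjusted p = 0.0541). The call in mut-FTO against FTO was lost without mut-FTO replicate 2 or 3 or any FTO library (adjusted p = 0.0546 to 0.108). Leukocytes also express SERPINA1. Of 8 leukocyte markers listed here, 4 of them tested, CD3D alone had no count in any library. The 8 summed to 69.6 to 110 CPM in mut-FTO libraries, 66.6 to 74.5 CPM in FTO libraries and 67.5 to 90.6 CPM in Vector libraries. The part of leukocytes in these results was not tested.

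SERPINA3 encodes alpha-1-antichymotrypsin, an acute phase protein that inhibits cathepsin G and mast cell chymase. The table counts it in 2 entries. The entry SERPINA3 had 291, 371 and 355 CPM in mut-FTO cells, 404, 414 and 423 CPM in FTO cells, and 499, 462 and 176 CPM in Vector cells. The entry SERPINA3-1 had 51.0, 87.1 and 16.4 CPM in mut-FTO cells, 16.3, 13.5 and 17.4 CPM in FTO cells, and 95.4, 217 and 303 CPM in Vector cells. Vector replicate 3 was the lowest library for the first entry and the highest for the second. SERPINA3-1 held 14.9%, 19.0% and 4.41% of the counts of both entries in mut-FTO replicates 1 to 3, 3.88%, 3.15% and 3.96% in FTO, and 16.1%, 32% and 63.3% in Vector replicates 1 to 3. The Wilson 95% interval of the last share was 62.6% to 64.0%, and it covers counting error only.

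Taken alone, SERPINA3-1 was 3.99-fold lower in mut-FTO than in Vector (log2 −2.0, SE 0.53; adjusted p = 0.0465, edgeR quasi-likelihood test) and 13.1-fold lower in FTO than in Vector (log2 −3.71, SE 0.58; edgeR adjusted p = 0.0166). The call in mut-FTO against Vector was lost with any 1 library left out except mut-FTO replicate 2 and Vector replicate 1 (adjusted p = 0.0573 to 0.230). Without mut-FTO replicate 2 its log2 value was −2.60. The call in FTO against Vector was lost when an FTO library, Vector replicate 2 or Vector replicate 3 was left out (adjusted p = 0.0722 to 0.123). In mut-FTO against FTO its log2 fold change of 1.71 (SE 0.53) did not pass (edgeR adjusted p = 0.153), with mut-FTO replicate 3 inside the range of the FTO libraries; without that library it was 2.13 and passed (adjusted p = 0.0352). The entry SERPINA3 passed in no comparison with all libraries, at log2 fold changes of −0.16, 0.13 and −0.29 in mut-FTO against Vector, FTO against Vector and mut-FTO against FTO (edgeR adjusted p = 0.809, 0.901 and 0.755). Without Vector replicate 3 it was lower in mut-FTO than in Vector (log2 −0.51; adjusted p = 0.00768), and without both that library and mut-FTO replicate 2 also lower in mut-FTO than in FTO (log2 −0.37; adjusted p = 0.0335).

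Summed over both entries, SERPINA3 had 342, 458 and 372 CPM in mut-FTO cells, 419.8, 428 and 440.0 CPM in FTO cells, and 594, 679 and 479 CPM in Vector cells. All Vector libraries were above all others, and mut-FTO overlapped FTO. The log2 fold change of the sum was −0.58 (SE 0.17; adjusted p = 0.0629) in mut-FTO against Vector, −0.44 (SE 0.17; adjusted p = 0.334) in FTO against Vector and −0.14 (SE 0.17; adjusted p = 0.808) in mut-FTO against FTO, none of which passed the edgeR quasi-likelihood test. Without Vector replicate 3 the first was −0.71 (adjusted p = 0.00101) and the second −0.59 (adjusted p = 0.0166), and both then passed. Between FTO and Vector the second entry was thus 13.1-fold lower in FTO and the sum 1.36-fold lower. Which transcripts each entry holds is not given in the sources used here. In the GENCODE v29 annotation, 55.6% of the windows of 100 bases in the longest SERPINA3 transcript also occur in transcripts of other genes. The gene sharing most of them is AL049839.2, which overlaps SERPINA3 on the same strand, so shared reads could be assigned to either. Whether SERPINA3-1 is that gene is not known.

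**Figure D3:**
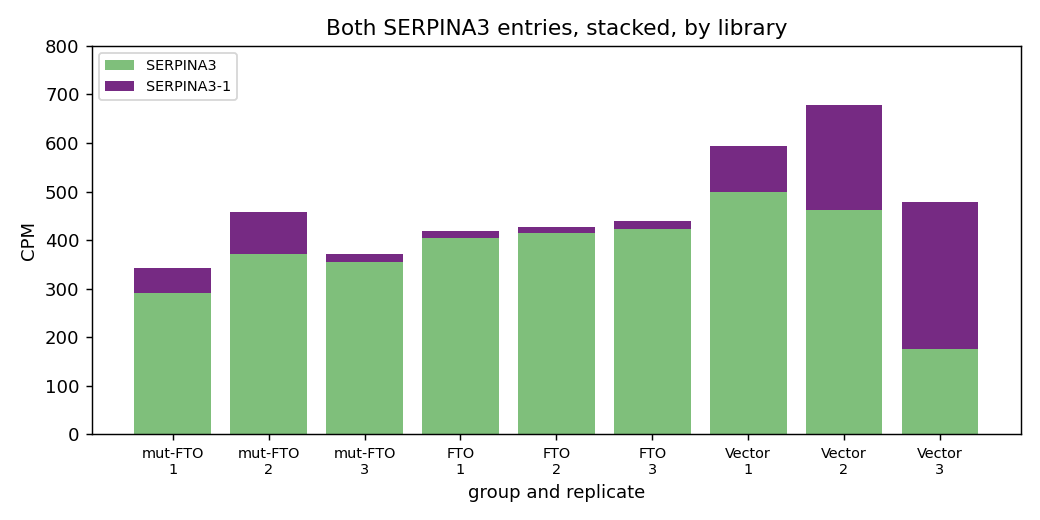
CPM (vertical axis, from 0) of the SERPINA3 entry (lower part of each bar) and the SERPINA3-1 entry (upper part), stacked, in each library of mut-FTO, FTO and Vector cells. The second entry is a thin cap in the FTO libraries, 13.5 to 17.4 CPM, and 303 CPM in Vector replicate 3, where the first entry is lowest at 176 CPM.

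A list on the acute phase and the STAT3 axis, to which SERPINA1 and SERPINA3 are related as acute phase genes, held 18 tested genes. In mut-FTO against Vector, 4.51% of all features tested passed lower and 3.27% higher. Of the 18 genes of the list, 14 did not pass in that comparison, with values on both sides of 0. The median log2 fold change of all 18 was −0.19, and 4 genes fell and 0 rose. The first 3 by p were C3, the central complement component (log2 −0.86, SE 0.18; adjusted p = 0.00984, edgeR), IL6, the cytokine that drives the acute phase (log2 −0.78, SE 0.19; adjusted p = 0.0254), and LIFR, a receptor of the same signalling family (log2 −4.04, SE 1.02; adjusted p = 0.0294). LIFR was near the detection limit, at 0.0226 ± 0.0392 CPM in mut-FTO cells, 0.382 ± 0.0654 CPM in FTO cells and 0.388 ± 0.0348 CPM in Vector cells (SD, n = 3 each). Its 2 counts in mut-FTO cells were both in replicate 2, without which its log2 value was −6.81, a fitted value that is no bound. The call of IL6 was lost without mut-FTO replicate 1 or 3, FTO replicate 1 or Vector replicate 2 (adjusted p = 0.0522 to 0.111), and that of LIFR without mut-FTO replicate 1 or 3, any FTO library or Vector replicate 1 or 2 (adjusted p = 0.0525 to 0.126). No gene of the list passed in FTO against Vector or in mut-FTO against FTO, where 0.744% and 2.33% of all features did.

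The squamous cell carcinoma antigens SERPINB3, an inhibitor of cysteine proteases such as cathepsins L, S and K, and SERPINB4, an inhibitor of cathepsin G and chymase, are neighbouring genes and close copies. Of the windows of 100 bases in their longest transcripts, 3.40% of those of SERPINB3 and 3.46% of those of SERPINB4 also occur in other genes. For each, the gene sharing most of them is the other of the pair. Their promoters, 250 bases before to 50 bases after the start, are shown since they are almost the same: 296 of 300 bases match, and the 4 that differ are in capitals. They lie at chr18:63661844-63662143 (SERPINB3) and chr18:63644207-63644506 (SERPINB4), both on the minus strand (RefSeq, GRCh38.p14), and are given 5′ to 3′.
SERPINB3: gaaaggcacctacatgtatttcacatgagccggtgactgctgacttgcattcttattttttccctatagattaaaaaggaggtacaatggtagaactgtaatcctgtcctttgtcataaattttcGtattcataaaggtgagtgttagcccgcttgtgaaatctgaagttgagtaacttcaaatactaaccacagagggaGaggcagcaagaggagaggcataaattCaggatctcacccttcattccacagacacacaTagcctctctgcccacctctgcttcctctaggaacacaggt
SERPINB4: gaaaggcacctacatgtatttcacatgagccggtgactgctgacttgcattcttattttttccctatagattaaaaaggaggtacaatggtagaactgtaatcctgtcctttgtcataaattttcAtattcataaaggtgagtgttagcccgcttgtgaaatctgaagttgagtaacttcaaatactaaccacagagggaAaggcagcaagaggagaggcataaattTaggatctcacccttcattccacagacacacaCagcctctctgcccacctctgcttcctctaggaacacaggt
Neither window held the E-box, AP-1 or TATA box letters named above, or the STAT letters named below, on either strand.

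SERPINB4 had 3547, 2579 and 2140.4 CPM in mut-FTO cells, 3499.97, 3443 and 4291 CPM in FTO cells, and 2289, 2688 and 6783 CPM in Vector cells. SERPINB3 had 2226, 1847 and 1442 CPM in mut-FTO cells, 2035, 1916 and 2440.05 CPM in FTO cells, and 1324, 1587 and 3993 CPM in Vector cells. For both genes Vector replicate 3 was far above the rest of its group, and the groups overlapped. Neither passed the edgeR quasi-likelihood test. In mut-FTO against Vector the log2 fold change was −0.51 (SE 0.35; adjusted p = 0.449) for SERPINB4 and −0.32 (SE 0.34; adjusted p = 0.643) for SERPINB3. These signs rested on 1 library: without Vector replicate 3 the values were 0.14 (adjusted p = 0.674) and 0.33 (adjusted p = 0.217). In FTO against Vector the log2 fold changes were −0.07 for SERPINB4 and −0.11 for SERPINB3, and 0.57 and 0.53 without that library (adjusted p = 0.108 and 0.104). With their counts summed into 1 row, a choice made after the data were seen, the log2 fold change was −0.44 in mut-FTO against Vector (edgeR adjusted p = 0.522).

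The ratio between both genes was steadier than their levels. SERPINB4 took 61.4%, 58.3% and 59.8% of their counts in mut-FTO cells, 63.2%, 64.3% and 63.7% in FTO cells, and 63.3%, 62.9% and 62.9% in Vector cells, although Vector replicate 3 had the highest level of both. All mut-FTO libraries were below all others. The difference was −3.24 percentage points in mut-FTO against Vector and −3.92 in mut-FTO against FTO (exact permutation test, two-sided, p = 0.1 each, the smallest that 3 libraries against 3 allow; 0.15 adjusted over the 3 comparisons by Benjamini-Hochberg). In FTO against Vector it was 0.687 points (exact permutation p = 0.2). The way the authors' counting assigned reads shared by both genes is not known.

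**Figure D4:**
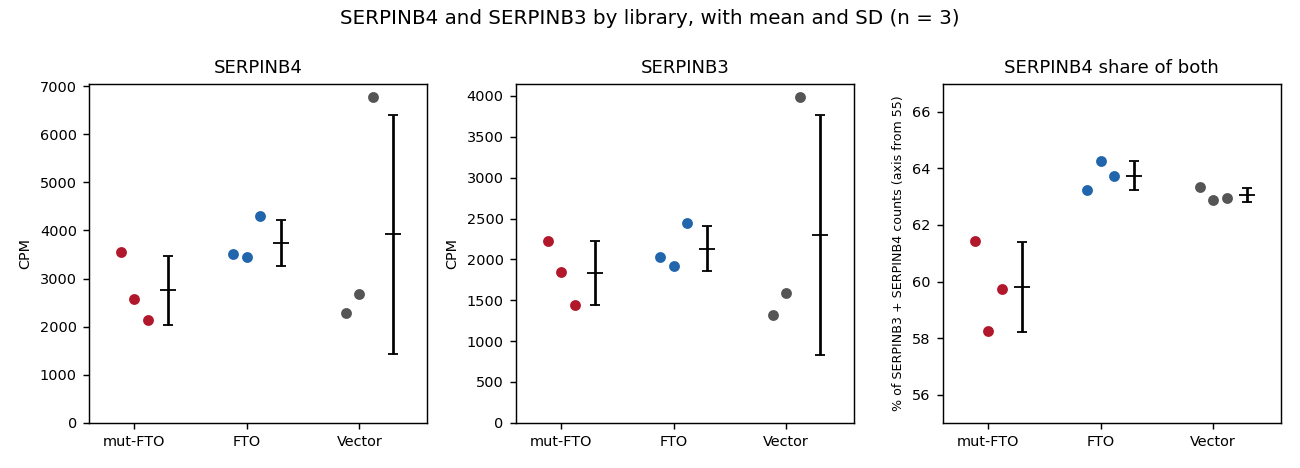
CPM (vertical axes of the left and middle panels, from 0) of SERPINB4 and SERPINB3 in each library of mut-FTO, FTO and Vector cells, and the share of SERPINB4 in the counts of both (right panel, percent, axis from 55), with mean and SD (bars, n = 3). The mut-FTO libraries lie at 58.3% to 61.4% and the others at 62.9% to 64.3%, while the highest levels are those of Vector replicate 3.

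Next in mean CPM among the serpin rows were SERPINB1, SERPINB13 and SERPINB5, also of clade B. SERPINB1, an inhibitor of neutrophil elastase, had 759.7, 533 and 746 CPM in mut-FTO cells, 754, 716 and 828 CPM in FTO cells, and 696, 832 and 623 CPM in Vector cells, so that the groups overlapped. SERPINB13, known in keratinocytes as an inhibitor of cathepsins L and K, had 534, 334 and 417 CPM in mut-FTO cells, 522, 556 and 580.5 CPM in FTO cells, and 447, 545 and 831 CPM in Vector cells. Vector replicate 3 was its highest library. Without that library, the log2 value of SERPINB13 in FTO against Vector turned from −0.14 to 0.13, and it passed in neither case. SERPINB5, or maspin, an epithelial serpin that does not inhibit proteases, had 483, 368 and 455 CPM in mut-FTO cells, 413, 404 and 470.0 CPM in FTO cells, and 364, 437 and 390.4 CPM in Vector cells. None of the 3 passed in any comparison. In mut-FTO against Vector their log2 fold changes were −0.08 for SERPINB1, −0.50 for SERPINB13 and 0.13 for SERPINB5 (edgeR adjusted p = 0.852, 0.237 and 0.689), with 95% intervals of −0.52 to 0.37, −1.07 to 0.07 and −0.26 to 0.52.

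SERPINB7, also called megsin, whose loss causes a keratoderma of palms and soles, had 243, 179.8 and 230.5 CPM in mut-FTO cells, 321, 316 and 333 CPM in FTO cells, and 284, 258 and 272 CPM in Vector cells. It was the row in which the FTO libraries lay above all others and the mut-FTO libraries below all others. No comparison passed: the log2 fold change was −0.32 in mut-FTO against Vector (edgeR adjusted p = 0.256), 0.25 in FTO against Vector (adjusted p = 0.539) and −0.57 in mut-FTO against FTO (adjusted p = 0.0808). SERPINB6, an intracellular inhibitor of cathepsin G, averaged 182 ± 7.20 CPM in mut-FTO cells, 222 ± 16.2 CPM in FTO cells and 186 ± 24.2 CPM in Vector cells, and SERPINB8, a furin inhibitor that keratinocytes express, 136 ± 6.25, 159 ± 6.98 and 158 ± 47.9 CPM in the same groups (SD, n = 3 each). For both, all mut-FTO libraries were below all FTO libraries, and no comparison passed (edgeR adjusted p = 0.438 and 0.664 in mut-FTO against FTO). SERPINB10 stayed at 0 to 0.378 CPM. In all, Vector replicate 3 was the highest of the 9 libraries for 8 of the 18 tested rows and the lowest for 3, against 27.8% and 28% of all features.

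Cysteine proteases, which SERPINB3 and SERPINB13 inhibit in part, changed in both directions. Of 16 tested, 2 rose and 4 fell in mut-FTO against Vector, 0 passed in FTO against Vector, and 2 fell in mut-FTO against FTO. The shares of all features that passed were 7.78%, 0.744% and 2.33%. The median log2 fold changes of the 16 genes were −0.07, 0.01 and −0.25. CTSL, cathepsin L, had 71.3, 69.6 and 66.6 CPM in mut-FTO cells, 147, 164 and 173 CPM in FTO cells, and 239.7, 239 and 269 CPM in Vector cells. It fell 3.6-fold in mut-FTO against Vector (log2 −1.85, SE 0.14; adjusted p = 1.22e-05, edgeR quasi-likelihood test) and 2.33-fold in mut-FTO against FTO (log2 −1.22, SE 0.14; adjusted p = 0.000943), and both calls held with any single library left out. CTSS, cathepsin S, averaged 9.09 ± 3.16 CPM in mut-FTO cells, 20.3 ± 0.653 CPM in FTO cells and 37.0 ± 7.14 CPM in Vector cells (SD, n = 3 each). It fell 4.07-fold in mut-FTO against Vector (log2 −2.02, SE 0.26; edgeR adjusted p = 0.000427) and 2.23-fold in mut-FTO against FTO (edgeR adjusted p = 0.0348), the second call being lost without any 1 mut-FTO or FTO library (adjusted p = 0.0574 to 0.15). CASP14, a caspase of cornifying keratinocytes, rose 3.84-fold in mut-FTO against Vector (log2 1.94, SE 0.37; edgeR adjusted p = 0.00600), and its log2 value was 2.61 without Vector replicate 3.

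Among serine proteases of epithelia and granules, 3 of 18 tested genes rose and 1 fell in mut-FTO against Vector. In FTO against Vector 1 rose, and in mut-FTO against FTO 2 rose and 1 fell. All-feature shares that passed were 7.78%, 0.744% and 2.33%. The median log2 fold changes of the 18 genes were 0.14, −0.02 and 0.11. TMPRSS11E, a membrane-anchored protease of squamous epithelia, had 11.4 ± 0.796 CPM in mut-FTO cells, 5.36 ± 0.587 CPM in FTO cells and 1.16 ± 0.390 CPM in Vector cells (SD, n = 3 each). It rose in mut-FTO against Vector (log2 3.29, SE 0.27; adjusted p = 2.01e-05, edgeR), in FTO against Vector (log2 2.20, SE 0.27; adjusted p = 0.00204) and in mut-FTO against FTO (log2 1.09, SE 0.25; adjusted p = 0.0404), the last call being lost without any 1 mut-FTO or FTO library (adjusted p = 0.09995 to 0.189). TMPRSS11D, a related protease, rose 3.33-fold in mut-FTO against Vector (edgeR adjusted p = 0.00318). KLK10, a kallikrein, rose 1.5-fold in mut-FTO against FTO (edgeR adjusted p = 0.0445), a call lost without any 1 library but Vector replicate 3 (adjusted p = 0.0508 to 0.202).

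GZMB, granzyme B, a granule protease inhibited by SERPINB9, averaged 10.2 ± 4.62 CPM in mut-FTO cells, 29.2 ± 3.17 CPM in FTO cells and 60.1 ± 10.2 CPM in Vector cells (SD, n = 3 each). It fell 5.94-fold in mut-FTO against Vector (log2 −2.57, SE 0.28; adjusted p = 0.000158, edgeR) and 2.88-fold in mut-FTO against FTO (log2 −1.53, SE 0.28; adjusted p = 0.0127), the second call being lost without mut-FTO replicate 3 or FTO replicate 2 or 3 (adjusted p = 0.0585 to 0.0865). SERPINB9 itself had 3 counts in 1 library, mut-FTO replicate 3, and none in the others.

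Coagulation genes, whose proteases clade C, D and E serpins inhibit, gave 1 higher and 4 lower of 10 tested in mut-FTO against Vector. In FTO against Vector 0 passed, and in mut-FTO against FTO 1 was higher and 2 lower. The corresponding shares of all features were 7.78%, 0.744% and 2.33%. Medians of the 10 genes were −0.34, 0.06 and −0.28 on the log2 scale. PROC, protein C, averaged 21.0 ± 2.85 CPM in mut-FTO cells, 7.79 ± 1.63 CPM in FTO cells and 4.24 ± 0.909 CPM in Vector cells (SD, n = 3 each). It rose in mut-FTO against Vector (log2 2.31, SE 0.24; adjusted p = 8.78e-05, edgeR) and against FTO (log2 1.43, SE 0.23; adjusted p = 0.00703), the second being lost without FTO replicate 2 or 3 (adjusted p = 0.0574 and 0.0585). F5, a cofactor of coagulation, had no count in mut-FTO cells and 188 counts over the Vector libraries, which is at least 63.1-fold lower with a floor of 3 counts over the group (edgeR adjusted p = 0.00448). F2RL1, a receptor cut by trypsin-like proteases, fell 1.80-fold in mut-FTO against Vector (edgeR adjusted p = 0.00363) and passed in mut-FTO against FTO (log2 −0.64; adjusted p = 0.0445), the second being lost without any 1 mut-FTO or FTO library or Vector replicate 2 (adjusted p = 0.0502 to 0.201). F3, tissue factor, averaged 258 ± 27.3 CPM in mut-FTO cells, 516 ± 44.4 CPM in FTO cells and 391 ± 71.6 CPM in Vector cells (SD, n = 3 each). It was 2.0-fold lower in mut-FTO than in FTO (log2 −1.0, SE 0.17, edgeR adjusted p = 0.0102). That call was lost without mut-FTO replicate 2 or 3 or FTO replicate 2 or 3 (adjusted p = 0.0640 to 0.0752). Against Vector, F3 did not pass in mut-FTO (log2 −0.60, edgeR adjusted p = 0.0516) or in FTO (log2 0.40, adjusted p = 0.383).

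Of 13 tested protease inhibitors outside the serpin family, 4 rose and 1 fell in mut-FTO against Vector. In FTO against Vector 1 rose, and in mut-FTO against FTO 2 rose and 1 fell. Of all features tested, 7.78%, 0.744% and 2.33% passed in the same comparisons. The median log2 fold changes of these inhibitors were 0.46, 0.24 and 0.20. SPINK6, an inhibitor of kallikreins, had 716 counts over the mut-FTO libraries and 51 over the FTO libraries, against none in Vector. Set against a floor of 3 counts over the Vector group, mut-FTO was higher by at least 237-fold (edgeR adjusted p = 2.55e-06) and FTO by at least 15.9-fold (edgeR adjusted p = 0.00159). The call in FTO against Vector was lost with only the 6 libraries compared (edgeR adjusted p = 0.102). PI3, or elafin, an inhibitor of elastase, averaged 1495 ± 427 CPM in mut-FTO cells, 611 ± 101 CPM in FTO cells and 377 ± 94.9 CPM in Vector cells (SD, n = 3 each), and rose 3.96-fold in mut-FTO against Vector (log2 1.99, SE 0.24; adjusted p = 0.000324, edgeR). Its rise of 2.45-fold in mut-FTO against FTO (adjusted p = 0.0141) was lost without mut-FTO replicate 2 or any FTO library (adjusted p = 0.0562 to 0.0936). TFPI2, an inhibitor of plasmin and trypsin in matrix, had 7.78, 7.20 and 8.49 CPM in mut-FTO cells, 21.0, 26.5 and 22.5 CPM in FTO cells, and 41.6, 34.2 and 31.5 CPM in Vector cells. It fell 4.57-fold in mut-FTO against Vector (adjusted p = 2.22e-05, edgeR) and 2.98-fold in mut-FTO against FTO (adjusted p = 0.000943).

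At the low end of the tested rows, SERPING1, the C1 inhibitor of the complement system, had a level of 0, 0.170 and 0 CPM in mut-FTO cells, 0.531, 0 and 0 CPM in FTO cells, and 0.263, 0.280 and 1.30 CPM in Vector cells. The mut-FTO libraries were below the Vector libraries, but its log2 fold change of −3.49 (SE 1.55) did not pass (edgeR adjusted p = 0.219). SERPINF1, pigment epithelium-derived factor, averaged 0.855 ± 0.104 CPM in mut-FTO cells, 0.784 ± 0.388 CPM in FTO cells and 0.648 ± 0.254 CPM in Vector cells, and SERPINI1, or neuroserpin, an inhibitor of PLAT in brain, 0.425 ± 0.276, 0.382 ± 0.0919 and 0.293 ± 0.287 CPM in the same groups (SD, n = 3 each). Neither passed in any comparison.

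The other 15 rows were not tested. There was no count in any library for 7 of them: SERPINA4, SERPINA7, SERPINA9, SERPINA11, SERPINA12, SERPIND1 and SERPINI2. These include the thyroxine carrier SERPINA7 and heparin cofactor SERPIND1, which liver makes. The remaining 8 had 2 to 24 counts over all libraries and at most 9 in any 1: SERPINA5 (24 counts), SERPINB12 (22), SERPINC1 or antithrombin (17), SERPINE3 (6), SERPINB11 (4), SERPINB9 (3), SERPINA6, the corticosteroid carrier (2), and SERPINA10 (2). All counts of SERPINC1 came from 2 Vector libraries. At this depth, differences in these rows were not detectable.

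By position, 9 of the clade A genes lie together on chromosome 14, 10 of the clade B genes on chromosome 18 and the other 3 clade B genes, SERPINB1, SERPINB6 and SERPINB9, on chromosome 6 (RefSeq). Of the tested genes on chromosome 18, SERPINB2 alone passed, in mut-FTO against Vector and in mut-FTO against FTO. On chromosome 14, SERPINA1 fell in every comparison, while the sum of SERPINA3 passed in none. Differences between neighbours were not tested. The STAT letters TTCNNNGAA were in 7.657% of all promoters and in 9 of the 39 member promoters. Those 9 belong to 9 of the 26 member genes with a sequence. Of these 9 genes, SERPINB1, SERPINB7 and SERPINB8 were tested, and none of them passed in any comparison.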

How the data were processed

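Poly(A) RNA of 9 HaCaT libraries was sequenced, and groups come from the sample titles. The authors deposited raw integer counts for each gene. Per the submitters' processing notes, HISAT2 and StringTie were used. Their versions, the strand setting and the annotation were not given in the sources used here. A mouse build, mm10, is named although symbols are human, so no coordinates of the counted features are printed. Columns carry letter codes and were matched to groups by those letters, and 0 columns of values were left out.

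Counts were analysed with edgeR 4.0.16 in R 4.3.3: filterByExpr (minimum count 10, minimum total 15), TMM factors, and robust quasi-likelihood fits of all 9 libraries with a term per group. P-values were adjusted by Benjamini-Hochberg over all 13713 features tested, with a threshold of 0.05. SE values were computed as the size of the log2 fold change over the root of F. CPM uses TMM-scaled library sizes, and levels per kilobase use the longest GENCODE v29 protein-coding transcript. Depth was 32222203 to 37846027 counts per library. The Wilson intervals of shares and the floors cover counting error only, while intervals of log2 fold changes come from the SE. These last use 6 residual degrees of freedom and can be wider than the edgeR p-values imply. The edgeR scripts were tested on simulated data. Promoters are from RefSeq (GRCh38.p14), with entries for 26 of the 33 rows described. 1 row of the family and 1 leukocyte marker are not reported here.

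Serpins that passed a test, the 5 highest in mean CPM and both SERPINA3 entries are given by library. From each list, up to 3 genes past the threshold with the lowest p in a comparison are named, and PLAT, PLAU and PLAUR always. Members and lists were chosen with earlier results of these data known. Alternatives were RLE factors, library size alone, DESeq2 1.42.0, limma-voom (limma 3.58.1), other filters, only the 6 libraries compared, the replicate number as a block, each library left out, Vector replicate 3 and mut-FTO replicate 2 left out together, and SERPINA3 entries summed. The sum of SERPINB3 and SERPINB4 was added after the data were seen.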

Additional observations from a re-analysis of the deposited data

How the results depend on the processing

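In mut-FTO against Vector, 3 to 5 serpin rows passed under every setting tried, against 5 with the settings of the report, with the fewest without mut-FTO replicate 3, and SERPINA1, SERPINB2 and SERPINE2 passed in each of them. For FTO against Vector, 2 serpin rows passed with those settings, 3 by DESeq2, and 1 each with no filter beyond 1 count, with only the 6 libraries compared, with the SERPINA3 entries replaced by their sum, and with the replicate number as a block; leaving out 1 library gave 0 to 2. In mut-FTO against FTO 3 passed, 5 without both Vector replicate 3 and mut-FTO replicate 2, and leaving out 1 library gave 1 to 4, with 1 without mut-FTO replicate 2 or any FTO library. With no filter beyond 1 count, 7 rows were not tested, against 15.

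Of the 84 tested genes in the protease and inhibitor lists, 26 passed in mut-FTO against Vector, 15 with only the 6 libraries compared and 16 to 35 with 1 library left out. Between FTO and Vector 2 passed, 12 by DESeq2, 1 with only the 6 libraries compared, 24 without both Vector replicate 3 and mut-FTO replicate 2, and 2 to 16 with 1 library left out. In mut-FTO against FTO 11 passed, 7 with library size alone, 7 with the replicate block, 22 without both of those libraries, and 3 to 20 with 1 left out. The all-feature counts moved too: FTO against Vector gave 102 calls, 366 by DESeq2, 41 with the 6 libraries, 67 with the block and 27 to 476 with 1 library left out; mut-FTO against Vector gave 1067, 1680 by DESeq2, 621 with the 6 libraries and 609 to 2089 with 1 left out; mut-FTO against FTO gave 319, 751 by DESeq2, 1218 with the 6 libraries and 71 to 1427 with 1 left out. Without both libraries the counts were 1050 in FTO against Vector, 2401 in mut-FTO against Vector and 1196 in mut-FTO against FTO.

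The summed SERPINA3 entries passed in mut-FTO against Vector with library size alone (log2 −0.67; adjusted p = 0.0290), by DESeq2 (−0.59; adjusted p = 0.0157) and without both libraries (−0.86; adjusted p = 1.15e-05), with −0.71 to −0.46 over single libraries left out. The sum in FTO against Vector passed without both (−0.58; adjusted p = 0.00101), with −0.59 to −0.32 over single libraries. The cause was not tested.

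Other named calls were lost too. With only the 6 libraries compared these were SERPINA3-1, IL6, LIFR and LRP8 in mut-FTO against Vector (adjusted p = 0.0878, 0.0864, 0.0678 and 0.0679). With the replicate block they were SERPINA3-1 in mut-FTO against Vector (0.140) and FTO against Vector (0.111), LIFR (0.0671), and CTSS, F2RL1, KLK10 and TMPRSS11E in mut-FTO against FTO (0.0658 to 0.114). Without both libraries SERPINA3-1 was lost in mut-FTO against Vector (0.133) and FTO against Vector (0.0674). With no filter beyond 1 count SERPINA3-1 was lost in both of these comparisons (0.151 and 0.0935), LIFR in mut-FTO against Vector (0.0698), and F2RL1 and KLK10 in mut-FTO against FTO (0.0543 and 0.0635). SERPINA3-1 in mut-FTO against Vector was also lost with a mean of at least 10 counts (0.0550), and CTSS, F2RL1, KLK10 and TMPRSS11E in mut-FTO against FTO with library size alone (0.0503 to 0.0597).

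Signs turned for values near 0 or led by Vector replicate 3, none of them past the threshold before or after. PLAUR in FTO against Vector was 0.01 and became −0.00587 with RLE factors, −0.025 with library size alone, −0.00585 by DESeq2 and −0.083 without both libraries. SERPINB3 became 0.061 by limma-voom and 0.54 without both; SERPINB4 0.10 by limma-voom, 0.024 with the replicate block and 0.58 without both; SERPINA3 −0.23, SERPINB1 −0.010 and SERPINB13 0.14 without both. In mut-FTO against Vector, SERPINB3 became 0.31 and SERPINB4 0.17 without both, and in mut-FTO against FTO SERPINB5 became −0.0097 with library size alone. Over single libraries left out, log2 fold changes in FTO against Vector ranged from −0.24 to 0.38 for SERPINA3, −0.39 to 0.53 for SERPINB3, −0.34 to 0.57 for SERPINB4, −0.019 to 0.22 for SERPINB1, −0.32 to 0.13 for SERPINB13, −0.086 to 0.11 for SERPINB2 and −0.093 to 0.077 for PLAUR. In mut-FTO against Vector they ranged from −0.51 to 0.088 for SERPINA3, −0.60 to 0.33 for SERPINB3, −0.78 to 0.14 for SERPINB4, −0.18 to 0.073 for SERPINB1 and −0.15 to 0.0029 for PLAUR. In mut-FTO against FTO they ranged from −0.061 to 0.14 for SERPINB5 and −0.014 to 0.18 for PLAU.

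The replicate numbers pair no libraries by their labels. For the features tested, deviations of log CPM from the group mean were correlated between libraries of different groups. These correlations ran from −0.13 to 0.11 for same-numbered libraries and from −0.12 to 0.15 for differently numbered ones.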
